A study of Mus musculus with 4 samples.

Results

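Most of the genes described here encode proteins that build ribosomes and the small nucleolar ribonucleoproteins (snoRNPs) that modify and process ribosomal RNA. The choice was by symbol, in RefSeq's table for GRCm38.p6, and took protein-coding genes whose symbol begins with Nop, Nol or Utp followed by a digit, with the addition of Fbl, Snu13, Nhp2, Gar1, Naf1, Shq1, Nolc1, Ncl, Npm1, Bop1, Pes1, Wdr12, Wdr36, Wdr43, Wdr74 and Wdr75. The rule gave 45 of 21779 protein-coding genes and used no measured value. Chromatin immunoprecipitation with sequencing (ChIP-seq) located RUVBL2 on DNA in the hypothalamus of wild-type (WT) male C57BL/J mice aged 8 weeks. The 2 RUVBL2 ChIP libraries (antibody ABclonal A1905) and the 2 input libraries, which had no antibody, all came from this strain, tissue and age. No treatment or altered allele is named in the labels, and the groups differ only in the antibody step. The study's title concerns RUVBL2 neurons of the paraventricular nucleus and appetite, but the chromatin came from the whole hypothalamus, so binding in fewer cells and weaker binding in each cell cannot be told apart. Whether replicates 1 and 2 came from separate animals or pools is not said in the labels, and the spread between the replicates may be technical.

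RUVBL2 and its partner RUVBL1 are AAA+ ATPases. As part of the R2TP chaperone they act in the assembly of both snoRNP families, the box C/D particles that guide ribose methylation and the H/ACA particles that guide pseudouridylation of ribosomal RNA. Both proteins are also subunits of the INO80, SRCAP and TIP60 chromatin complexes, and a ChIP signal shows only that RUVBL2 was near the DNA, not in which complex. Ribosome biogenesis genes are transcribed in nearly every cell type, neurons included.

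The values are those of 2 peak lists, 1 per ChIP library, with 3943 peaks in replicate 1 and 6403 in replicate 2. Each peak carries a fold enrichment over the background estimated by the authors' peak caller. Where a peak of replicate 1 and one of replicate 2 had 1 bp or more in common, they were joined into 3111 shared regions. A gene was taken to hold a peak or region whose midpoint lay in its body or within 3 kb of an end. The depth of the libraries is unknown here. The summit pileups behind the members' peaks ran from 10 to 23 reads in replicate 1 and from 12 to 44 in replicate 2, so the 95% intervals given with the folds, exact Poisson intervals of the pileup, are wide and cover counting error only. Shared regions lay at 1 of 7 neuronal markers (Rbfox3), 1 of 12 hypothalamic neuron markers (Pomc) and none of 7 glial, 2 endothelial and 3 liver markers, against 17.2% of all protein-coding genes. The neuronal shares (14.3% and 8.33%) are not above that of all genes, and they were the same in replicate 1 (against 20.9%). In replicate 2, 3 of the 7 neuronal markers had a peak (42.9%, exact 95% interval from 9.90 to 81.6, against 32.6%). There, 1 of the 12 hypothalamic markers had one (8.33%). The glial, endothelial and liver markers had none in either list. With so few markers, these shares do not set the labelled tissue apart, and peaks do not measure expression.

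RUVBL2 peaks were found at most of the 45 genes, but mostly in replicate 2 alone. Replicate 1 placed a peak at 16 of the 45 (35.6%, exact Clopper-Pearson 95% interval 21.9 to 51.2), where the share over all protein-coding genes was 20.9%. In replicate 2, 31 of 45 did (68.9%, 53.4 to 81.8), against 32.6%. A shared region lay at 12 genes (26.7%, 14.6 to 41.9), against 17.2%. Those 12 are Fbl, Nop56, Snu13, Gar1, Ncl, Nol7, Utp3, Utp14b, Utp15, Utp18, Utp20 and Wdr43. A further 18 genes had a peak in replicate 2 only (40%, against 14.9% of all protein-coding genes) and 3 in replicate 1 only (6.67%, against 3.14%). Nop2 had peaks in both lists that did not overlap, and 11 genes had none in either list (24.4%, against 64.2%). No test was made of these shares, since the genes were chosen with results of these data known. For the shared regions, the interval of the 45 genes includes the share over all protein-coding genes. Where only peaks with a −log10 q of 5 or more were used, the order turned for shared regions (2 of 45 genes, 4.44%, against 8.50%) and for replicate 1 (4 of 45, 8.89%, against 10.4%), but not for replicate 2 (20 of 45, 44.4%, against 23.7%).

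**Figure D1:**
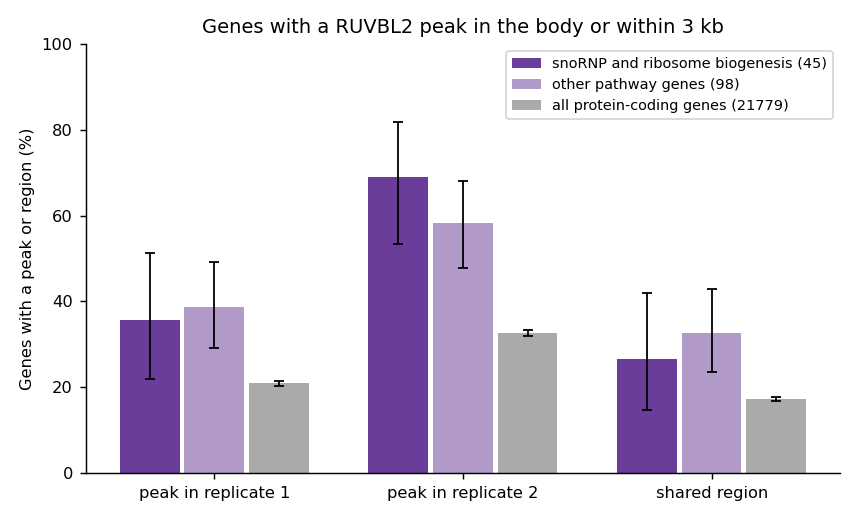
The vertical axis gives the percentage of genes with a RUVBL2 peak in replicate 1, in replicate 2, or with a shared region, in the gene body or within 3 kb. Bars stand for the 45 snoRNP and ribosome biogenesis genes, 98 other genes of the pathway and all 21779 protein-coding genes, with exact 95% binomial intervals; the bar of the 45 genes is highest in replicate 2, at 68.9% against 32.6% of all genes.

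The peaks at these genes had a lower median fold in each list than those of all genes with a peak. Their folds ran from 3.39 to 7.38 in replicate 1 (median 4.34 over 16 genes, taking each gene's peak with the largest −log10 p), where the best peaks of all 4551 protein-coding genes with a peak had a median of 4.93. In replicate 2 they ran from 2.76 to 8.41 (median 3.95 over 31 genes), against 4.87 over 7103 genes. Ranked by −log10 p, counted upwards from the weakest peak of a list, the median percentile of the best peak was 39.8 for these genes in replicate 1, against 52.3 for all genes with a peak. In replicate 2 it was 35.6, against 54.2. By the median, the peaks of the 45 genes therefore sat lower in both lists than those of all genes with a peak, a difference that was not tested. Strong peaks were among them too, at Nol7 and Fbl in replicate 1 (ranks 345 and 603) and at Nop53 and Fbl in replicate 2 (ranks 328 and 370). The shared region of these Fbl peaks lay nearer to an end of Dyrk1b than of Fbl.

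Most of the distance from other genes appeared as the weaker peaks of a list were added. Among the first 1000 peaks by −log10 p, replicate 1 had peaks at 2 of the 45 genes, Fbl and Nol7 (4.44%, against 6.18% of all protein-coding genes). The first 1000 peaks of replicate 2 gave 4, namely Fbl, Ncl, Nop53 and Wdr75 (8.89%, against 5.70%). At 2000 peaks the shares were 11.1% of the 45 genes in either list, against 11.9% of all genes in replicate 1 and 11.3% in replicate 2. At 3000 peaks they were 28.9% against 16.6% in replicate 1 and 26.7% against 16.6% in replicate 2. When the list of replicate 2 was shortened to the 3943 peaks that replicate 1 holds, a step chosen after seeing the data, 15 of the 45 genes held a peak (33.3%, against 21.5%), close to the 16 of replicate 1. The other 16 of its 31 genes were reached only by its weaker peaks.

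**Figure D2:**
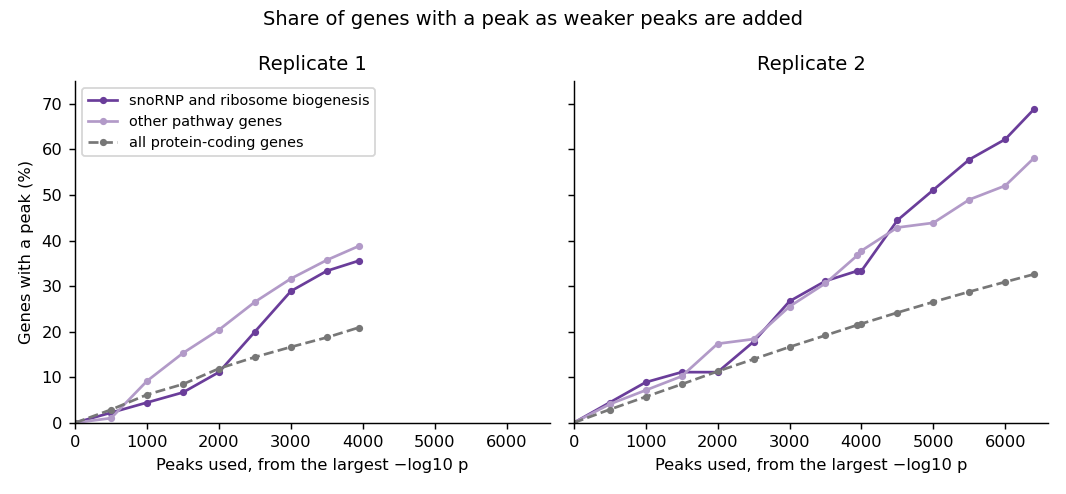
The horizontal axis gives the number of peaks used, from the largest −log10 p, and the vertical axis the percentage of genes with a peak in the body or within 3 kb, for the 45 genes, 98 other pathway genes and all protein-coding genes. In both replicates the 45 genes lie near all protein-coding genes up to 2000 peaks (11.1% against 11.9% and 11.3%) and above them from 3000 peaks on (28.9% against 16.6% in replicate 1, 26.7% against 16.6% in replicate 2).

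Shared regions were more frequent at genes with CpG-rich promoters, among the 45 genes and over all genes. RefSeq promoter entries (GRCm38.p6, 250 bases before to 50 after a transcription start) were matched for 33 of the 45 genes, of which 23 (69.7%) were CpG-rich, here a GC content of at least 55% and an observed over expected CpG ratio of at least 0.6. Of all 17492 protein-coding genes with an entry, 41.3% were CpG-rich. Shared regions lay at 9 of the 23 genes with a CpG-rich entry (39.1%), against 31.7% of all 7219 such protein-coding genes, and at 2 of the other 10 (20%), against 7.85%. In replicate 1, 11 of the 23 held a peak (47.8%, against 37.7%), and in replicate 2, 18 did (78.3%, against 57.0%). For shared regions the shares were thus 39.1% against 31.7% among CpG-rich promoters, and 26.7% against 17.2% for all 45 genes. These sets are unlike, since 12 of the 45 have no entry, and the counts are small. The part of base composition in the result was not tested. No background of genes expressed in this tissue was used.

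The shared regions lay close to listed starts. Of the 12 genes, 11 have a promoter entry; the region holds the start at 10 of them, Utp14b being the exception, and each of these had the midpoint of the region within 1 kb of the start, at a median absolute distance of 157 bp and at positions from −432 to 328 bp, negative values being upstream. Of 3093 protein-coding genes with a shared region and an entry, 86.7% had it within 1 kb of a start. Counted only within 1 kb of a start, 11 of the 33 genes held a shared region (33.3%, against 15.5% of 17492 genes), 13 a peak of replicate 1 (39.4%, against 18.7%) and 22 a peak of replicate 2 (66.7%, against 29.3%). The member regions were 507 to 1315 bp wide (median 802, against 722 over all genes with one), and the median distance to the nearer gene end was 164.5 bp, against 258. Within a list, 13 of 14 summits in replicate 1 and 22 of 24 in replicate 2 lay within 400 bp of the start. The exceptions were Nop2 in replicate 1 and Nop10 and Wdr74 in replicate 2. Of these summits, 10 of 14 and 15 of 24 lay downstream of the start.

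**Figure D3:**
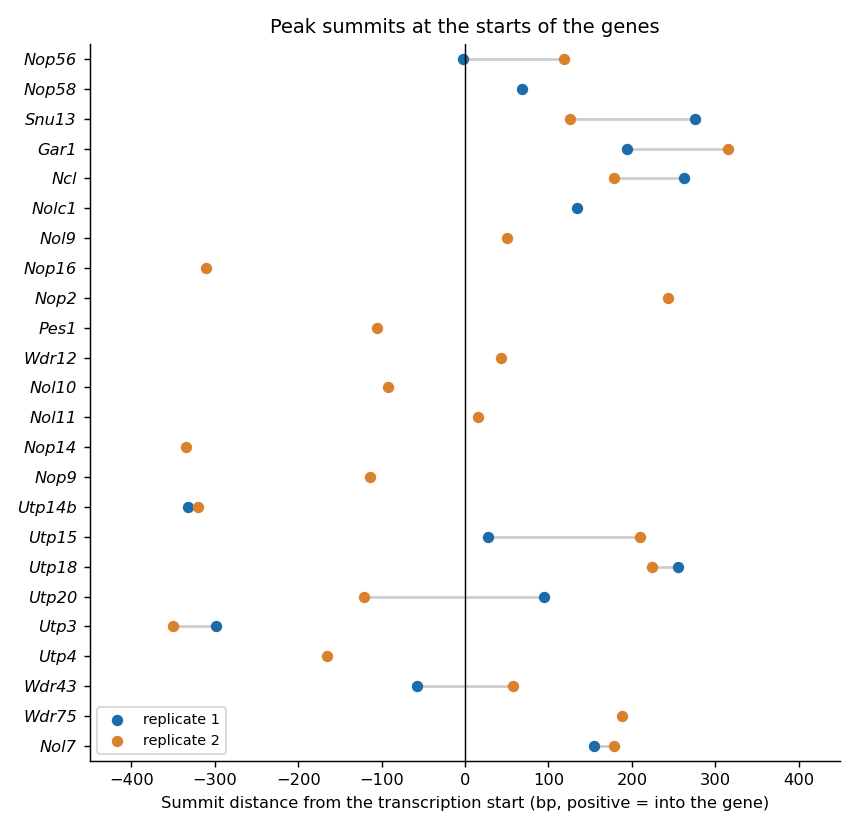
The horizontal axis gives the distance of the peak summit from the nearest listed transcription start in bp, positive into the gene, for the 24 genes with a summit within 450 bp; a grey line joins the summits of replicate 1 and replicate 2 of a gene. The 13 summits of replicate 1 and 22 of replicate 2 that are drawn lie on both sides of the start, and summits of shared regions at one gene lie 12 to 216 bp apart.

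The promoters of 6 genes whose shared region holds the listed start are shown, since they are the starts that the regions cover; they are the 6 best ranked with an entry that meet this, each 300 bases from 5′ to 3′ on the gene's strand, with the start at base 251. Peaks of replicate 1 overlap the printed bases at 4 of the 6 genes (not at Utp18 and Snu13) and peaks of replicate 2 at all 6, but among all these peaks the summit falls inside the printed bases only at Nop56 in replicate 1. Capitals mark CCAAT (the NF-Y box), GGGCGG (Sp and KLF factors), CCGGAAG (ETS factors) or CACGTG (the E-box bound by MYC and related factors), on either strand.
Utp3 (chr5:88554212-88554511, plus strand): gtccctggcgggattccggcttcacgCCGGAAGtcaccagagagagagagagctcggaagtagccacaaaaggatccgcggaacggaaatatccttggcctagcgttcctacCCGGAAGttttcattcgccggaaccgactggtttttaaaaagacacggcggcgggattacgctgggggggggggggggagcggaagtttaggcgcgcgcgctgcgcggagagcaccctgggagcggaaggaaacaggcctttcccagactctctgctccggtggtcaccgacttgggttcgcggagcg
Ncl (chr1:86359406-86359705, minus strand): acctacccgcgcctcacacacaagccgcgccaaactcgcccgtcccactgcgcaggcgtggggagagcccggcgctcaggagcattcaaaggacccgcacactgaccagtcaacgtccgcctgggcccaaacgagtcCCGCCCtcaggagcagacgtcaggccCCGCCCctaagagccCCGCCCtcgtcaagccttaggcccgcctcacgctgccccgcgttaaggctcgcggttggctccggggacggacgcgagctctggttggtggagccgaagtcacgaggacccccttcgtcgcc
Nol7 (chr13:43398126-43398425, plus strand): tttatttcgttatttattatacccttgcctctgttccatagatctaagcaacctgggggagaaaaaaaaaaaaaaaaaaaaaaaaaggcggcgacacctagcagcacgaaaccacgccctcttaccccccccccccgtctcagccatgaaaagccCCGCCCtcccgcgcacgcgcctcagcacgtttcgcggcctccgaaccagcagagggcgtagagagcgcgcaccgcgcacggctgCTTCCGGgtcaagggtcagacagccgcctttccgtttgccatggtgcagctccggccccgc
Utp18 (chr11:93885717-93886016, minus strand): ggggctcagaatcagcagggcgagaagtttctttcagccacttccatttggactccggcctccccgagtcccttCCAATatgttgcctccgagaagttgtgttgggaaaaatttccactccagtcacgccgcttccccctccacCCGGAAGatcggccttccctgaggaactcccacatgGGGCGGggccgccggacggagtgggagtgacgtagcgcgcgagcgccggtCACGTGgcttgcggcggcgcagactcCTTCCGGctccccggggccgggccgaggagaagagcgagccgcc
Snu13 (chr15:82047549-82047848, minus strand): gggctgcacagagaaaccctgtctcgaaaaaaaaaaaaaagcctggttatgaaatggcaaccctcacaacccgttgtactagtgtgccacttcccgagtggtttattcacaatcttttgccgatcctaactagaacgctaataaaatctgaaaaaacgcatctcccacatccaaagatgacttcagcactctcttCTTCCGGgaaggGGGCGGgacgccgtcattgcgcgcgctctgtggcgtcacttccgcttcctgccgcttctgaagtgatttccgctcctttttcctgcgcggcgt
Nop56 (chr2:130274162-130274461, plus strand): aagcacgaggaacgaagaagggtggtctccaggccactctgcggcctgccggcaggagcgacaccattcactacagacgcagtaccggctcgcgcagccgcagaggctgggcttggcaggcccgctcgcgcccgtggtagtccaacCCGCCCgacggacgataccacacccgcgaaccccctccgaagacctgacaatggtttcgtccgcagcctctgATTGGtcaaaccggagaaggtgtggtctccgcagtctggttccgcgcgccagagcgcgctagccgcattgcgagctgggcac

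Among the 33 genes with an entry, letters of the ETS type and the E-box were more frequent than over all promoters. CCGGAAG stood in 13 entries (39.4%), against 11.9% of all 17492 entries and 19.8% of the CpG-rich ones. CACGTG stood in 9 (27.3%), against 7.91% and 11.8%. GGGCGG stood in 26 (78.8%), against 46.3% and 79.8%. Among the 23 CpG-rich entries of these genes, the shares were 43.5% for CCGGAAG, 26.1% for CACGTG and 82.6% for GGGCGG. The share of GGGCGG was thus near that of CpG-rich promoters in general. CCAAT was in 8 (24.2%), against 39.2% of all entries and 36.3% of the CpG-rich ones. TATAAA was in 3 (9.09%), against 13.3% and 4.06%. None of the 33 held GCGCATGC (NRF1; 3.61% of all entries), TGACGTCA (the cyclic AMP response element; 2.33%), AAGATGGC (YY1; 3.21%) or ACTACAATT (ZNF143 or THAP11; 0.543%). Of the 11 genes with a shared region, 5 held CCGGAAG (45.5%) and 4 CACGTG (36.4%). Over all 3093 protein-coding genes with a shared region and an entry, the shares were 21.6% and 10.2%. Of the 22 genes without a shared region, 8 held CCGGAAG (36.4%) and 5 CACGTG (22.7%). Both strands were searched, 1 entry was used per gene, no motif contains another, and a match describes letters and not a bound site.

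Box C/D snoRNP genes had the highest share of the 6 role groups in replicate 1 and for shared regions, though not in replicate 2. All 4 genes had a peak in replicate 1 (against 20.9% of all protein-coding genes) and 3 in replicate 2 (75%, against 32.6%). The same 3 held a shared region (75%, exact 95% interval from 19.4 to 99.4, against 17.2%). These shares rest on 4 genes. Fbl, the ribose methyltransferase fibrillarin, had a fold of 6.47 (95% counting interval from 4.07 to 9.83) in the first replicate, and of 6.70 (from 4.91 to 8.94) in the second, at ranks 603 and 370, and no other of the 45 genes was in the first 1000 of both lists. That region (chromosome 7, 28179366 to 28179880) lay 354 bp outside the higher end of Fbl and 140 bp downstream of the start of Dyrk1b, a kinase gene. It was not counted at Fbl where only the nearest gene was used. A further peak of replicate 2 lay inside Fbl, 609 bp from its lower end, with a fold of 4.66 (2.78 to 7.40); replicate 1 listed none there. Nop56, a scaffold protein of the particle, had folds of 3.79 (2.23 to 6.11) and 3.42 (2.26 to 4.99) in a region over its start (chromosome 2, 130273644 to 130274747). Snu13, which binds the k-turn of the guide RNA, had 4.0 (2.21 to 6.75) and 3.82 (2.48 to 5.66) (chromosome 15, 82047192 to 82047808). Nop58, the partner of Nop56, had a fold of 4.03 (2.41 to 6.4) in replicate 1, 68 bp downstream of its start, and in replicate 2 the nearest summit was 14155 bp from the gene.

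Of the H/ACA snoRNP genes, 1 of 5 held a shared region (20%, against 17.2% of all protein-coding genes) and 3 had no peak in either list (60%, against 64.2%), shares near those of all genes. Gar1, a core protein of the particle, had a fold of 4.37 (2.61 to 6.93) in replicate 1, but 2.76 (1.74 to 4.20) was its fold in replicate 2, at ranks 2320 and 6170, so that its peak was among the weakest of the second list. Nop10, another core protein, had a peak in replicate 2 only (fold 4.85), whose summit lay 2856 bp from the gene; it was the peak closest to the 3 kb limit, while one 3175 bp from Nol8 in the same replicate fell outside. Nhp2, the third core protein listed here, had none, the nearest summits lying 12292 and 12330 bp away. Naf1 and Shq1, assembly factors of the particle, had none either, and the nearest summit to Naf1 lay 373451 bp away in replicate 2. With 4 and 5 genes in the snoRNP groups, a difference between them was not tested.

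The 3 genes of abundant nucleolar phosphoproteins all had a peak in at least 1 list (100%, exact interval from 29.2 to 100). That interval includes the 35.75% of all protein-coding genes with a peak in either list. A shared region lay at 1 of the 3 (33.3%, exact interval from 0.84 to 90.6, which includes the 17.2% of all protein-coding genes). These shares rest on 3 genes. Ncl, nucleolin, reached 4.11-fold (2.41 to 6.61) in replicate 1, while replicate 2 gave 6.57 (4.50 to 9.29), in a region over its start (chromosome 1, 86358635 to 86359619) at ranks 2793 and 932. Npm1, nucleophosmin, had a peak in replicate 2 only (4.62, 3.12 to 6.6), and Nolc1, a chaperone-like partner of snoRNPs, in replicate 1 only (4.27, 2.59 to 6.69).

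**Figure D4:**
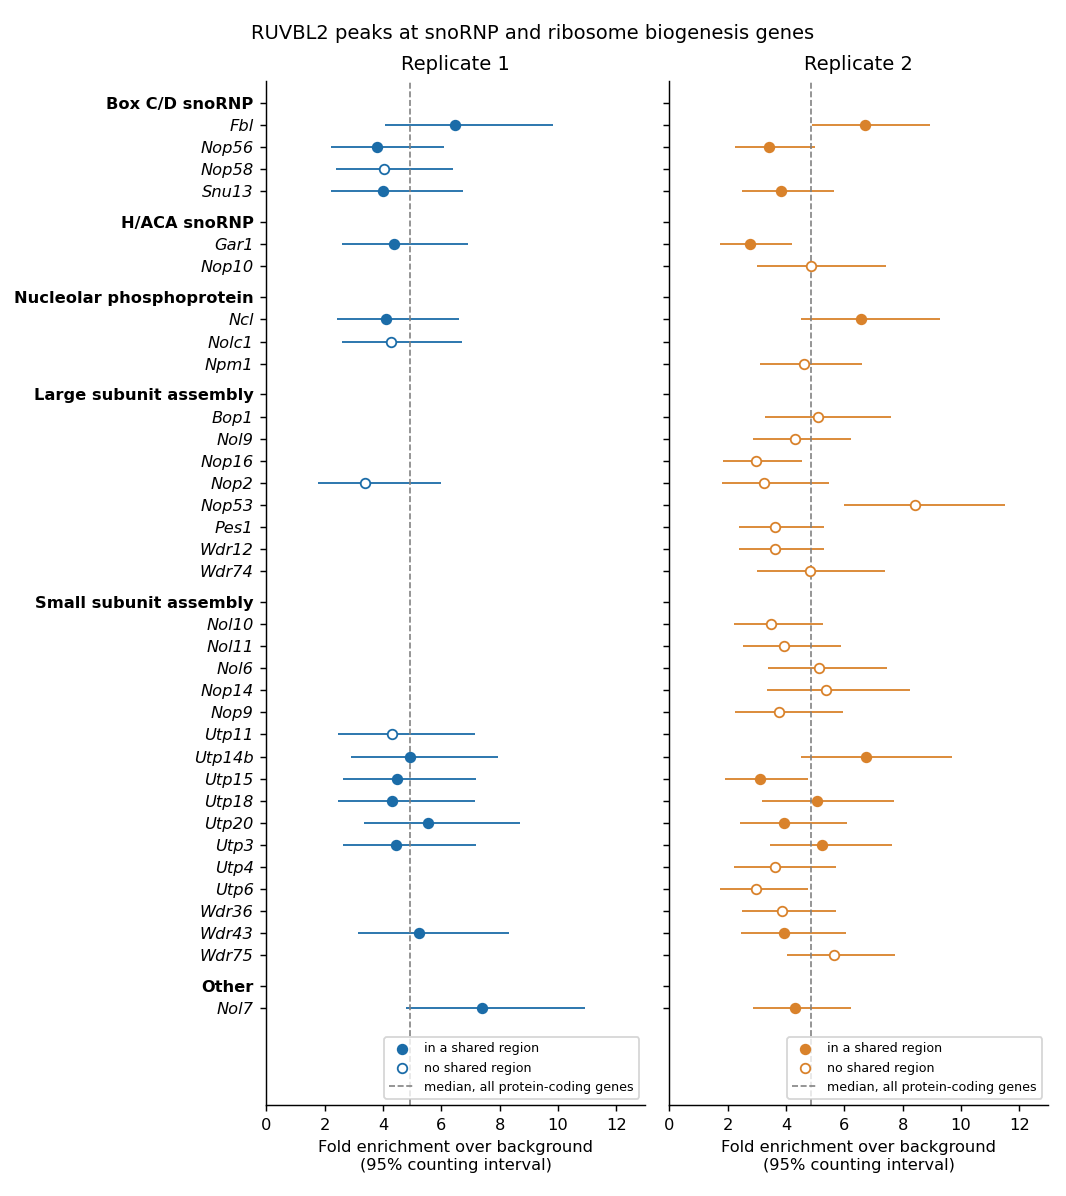
The horizontal axes give the fold enrichment over background of each gene's best peak in replicate 1 and replicate 2, with the 95% counting interval, for the 34 genes with a peak in either list, grouped by role; filled points lie at genes with a shared region, and the dashed line is the median over all protein-coding genes with a peak (4.93 and 4.87). Most points lie left of that line, and the large subunit genes are nearly empty in replicate 1 and nearly full in replicate 2.

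Large subunit assembly genes differed most between the lists. None of the 9 held a shared region (exact 95% interval up to 33.6%, which includes the 17.2% of all protein-coding genes). In replicate 1, 1 had a peak (11.1%, against 20.9%), and in replicate 2, 8 had one (88.9%, against 32.6%). Nop53, which acts in late processing of the large subunit, had a fold of 8.41 (5.99 to 11.5) at rank 328 in replicate 2, the highest fold among the 45 genes in that list, with its summit 108 bp from a gene end; in replicate 1 the nearest summit lay 326922 bp away. Bop1, Pes1 and Wdr12 form the PeBoW complex needed for maturation of the large subunit. Their folds in replicate 2 were 5.09 (3.27 to 7.59), 3.63 (2.40 to 5.29) and 3.63 (2.40 to 5.29), and replicate 1 had no peak at any of them. The Bop1 peak lay nearer to an end of Hsf1. Nol9, a polynucleotide kinase of ribosomal RNA processing, had 4.30, Nop16 had 2.98, nearer to an end of Higd2a, and Wdr74 had 4.83, with its summit 918 bp beyond the gene and nearer to Stx5a. Nop2, a methyltransferase of large subunit ribosomal RNA, had a fold of 3.39 (1.79 to 5.98) in replicate 1, 617 bp outside its higher end and nearer to Iffo1, and of 3.23 (1.79 to 5.46) in replicate 2, 243 bp downstream of its start. Nol8 had no peak.

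Small subunit assembly genes, 19 of the 45, held 6 of the 12 shared regions. Their share was 31.6% (exact 95% interval from 12.6 to 56.6, which includes the 17.2% of all protein-coding genes). In replicate 1, 7 had a peak (36.8%, against 20.9%), and in replicate 2, 15 had one (78.9%, against 32.6%). Most of the 19 genes encode parts of the small subunit processome, the particle that forms on the nascent ribosomal RNA. Utp14b, a retrogene copy of Utp14a, reached 4.93-fold (2.90 to 7.93) in replicate 1, while replicate 2 gave 6.75 (4.53 to 9.71). The midpoint of its region (chromosome 1, 78657597 to 78658420) lay at −432 bp, upstream of its own listed start, and 183 bp downstream of a start of Acsl3, an acyl-CoA synthetase gene whose end it shares. Utp3 had 4.46 (2.62 to 7.17) and 5.24 (3.46 to 7.64) (chromosome 5, 88553790 to 88554569), with both summits upstream of the start, by 298 and 350 bp. Utp18 had 4.32 (2.44 to 7.16) and 5.07 (3.19 to 7.71) in the widest region (chromosome 11, 93885266 to 93886580), which also joins a further peak of replicate 1 with the same fold 654 bp upstream; its midpoint lay 73 bp downstream of the start of Mbtd1 and 157 bp upstream of that of Utp18. Wdr43 had 5.24 (3.13 to 8.32) and 3.95 (2.45 to 6.05) (chromosome 17, 71616030 to 71616595). Utp20 had 5.55 (3.36 to 8.70) and 3.93 (2.41 to 6.09) (chromosome 10, 88826535 to 88827114), and its summits fell on opposite sides of the start, 95 bp downstream in replicate 1 and 121 bp upstream in replicate 2. Utp15 had 4.48 (2.63 to 7.20) and 3.09 (1.92 to 4.75) (chromosome 13, 98262481 to 98263371), in a region 150 bp upstream of the start of Ankra2.

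The remaining small subunit genes had a peak in 1 list or in none. Utp11 was listed in replicate 1 only, with a fold of 4.32 (2.44 to 7.16). In replicate 2 only, Wdr75, a subunit of the early-acting UtpA complex, had 5.66 (4.03 to 7.74) at rank 870, the strongest of the 9. Nop14 had 5.38, Nol6 5.13, Nol11 3.94, Wdr36 3.85, Nop9 3.76, Utp4 3.64, Nol10 3.50 and Utp6 2.96. At Nop14, Nop9 and Utp4 the end of another protein-coding gene was nearer to the peak (Grk4, Dhrs1, and Chtf8 with Derpc). Utp14a on chromosome X, Utp23 and Utp25 had no peak in either list, and the nearest summit to Utp14a was 4706104 bp away, in replicate 2.

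Of the 5 other genes that the symbol rule brings in, 1 held a region (20%, against 17.2% of all protein-coding genes). Nol7, a nucleolar protein, had a fold of 7.38 (4.79 to 10.9) in replicate 1, the highest of the 45 genes there, and 4.30 (2.86 to 6.23) in replicate 2 (chromosome 13, 43398362 to 43398868), with summits 24 bp apart and 154 and 178 bp downstream of the start. Nol3, which is known as an inhibitor of apoptosis and shares the name prefix only, had none. Nol12, Nol4 and Nol4l had none.

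Several of the genes carry snoRNA genes within their bodies. The table lists 15 snoRNA genes within 5 of the 45, namely Nop58 (with Snord11 and Snord70), Ncl (with Snora75 and Snord82), Nop56 (with Snord57 and Snord110), Nop53 (with Snord23) and Wdr43 (with Snord53 and Snord92). Ncl, Nop56 and Wdr43 held a shared region, Nop58 a peak in replicate 1 only and Nop53 in replicate 2 only. Of all 369 protein-coding genes with a snoRNA gene in the body, 35.5% held a shared region. The regions lay at the gene ends: the midpoint at Nop56 was 1320 bp from Snord110 and that at Ncl 2800 bp from Snord82.

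Other genes of the same pathways, in lists written with earlier results of these data known, also held shared regions. Of 98 such genes matched in the table, 32 held one (32.7%, 23.5 to 42.9), 38 had a peak in replicate 1 (38.8%) and 57 in replicate 2 (58.2%), against 17.2%, 20.9% and 32.6% of all protein-coding genes. The interval for the shared regions overlaps that of the 45 genes. With the nearest gene only, 21 of the 98 held a shared region (21.4%, against 13.7% of all protein-coding genes). The exosome, which trims precursor ribosomal RNA, had a shared region at 6 of 13 genes (46.2%, with an exact 95% interval from 19.2 to 74.9, against 17.2%). Its folds were 5.55 in replicate 1 and 7.96 in replicate 2 at Exosc8, 5.23 and 9.80 at Exosc7, and 4.37 and 7.27 at the helicase gene Mtrex. Large subunit processing factors had 15 of 37 (40.5%, with an exact 95% interval from 24.8 to 57.9). Nip7 had folds of 5.04 and 7.71, Rrp8 6.16 and 5.44 (778 bp from the nearer gene end), and Rpf1 4.93 and 6.62. None of the 9 large subunit genes among the 45 held a shared region, a difference that was not tested. Small subunit factors had 5 of 25 (20%, near the 17.2% of all genes). They were led by Emg1, a pseudouridine methyltransferase, with 5.79 and 8.33, Noc4l with 4.48 and 6.13 and Pwp2 with 4.46 and 4.44. The Pwp2 region lay 1249 bp from the nearer gene end. RNA polymerase I machinery had 3 of 13 (23.1%, with an exact 95% interval from 5.04 to 53.8), at Ubtf (5.86 and 5.49; 6251 bp from the gene end), Polr1a (5.54 and 4.53) and Rrn3 (3.53 and 5.03). Among 10 snoRNP partners and assembly factors, 3 held one (30%, with an exact 95% interval from 6.67 to 65.2, against 17.2%). They were Taf9 (6.16 and 4.75), Nufip1, an adaptor of box C/D assembly (4.03 and 3.50), and Znhit3 (5.54 and 3.52). In replicate 2, 4 of the 10 had a peak (40%, against 32.6%), and 6 had none in either list (60%, against 64.2%). Dkc1, the pseudouridine synthase of the H/ACA particle, had no peak in either list.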

How the data were processed

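RUVBL2 was mapped by ChIP-seq in 2 libraries beside 2 input libraries; the input libraries have no values of their own here. Per the submitters' processing notes, reads were handled with MACS2 2.1.0, Bowtie2 2.3.4.1, Trimmomatic 0.33, ChIPseeker and bcl2fastq 2.17 on build GRCm38; their settings, and the control of the peak calls: not given in the sources used here. The authors deposited, per library, the fold enrichment (ratio), −log10 p and −log10 q of each summit. The deposited score is the −log10 q times 10 without its decimals, and the deposited summit lists repeat the summits and −log10 q of the peak lists. The names in the list of replicate 2 begin with Hyp3; it was assigned by its GEO sample. Folds are the authors' values and describe peaks within a list.

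Summit pileups were solved from fold and −log10 p (whole number within 0.0001 of the −log10 p for every member peak; checked on 2000 simulated peaks, 2000 recovered). Genes are 21779 protein-coding rows of the RefSeq GRCm38.p6 table after 394 rows with no chromosome, on the mitochondrial genome or within 3 Mb of a chromosome's first base (Y excepted) were left out. Strand comes from the RefSeq promoter entries. Of 101 pathway names, 98 matched. The members and lists were chosen with earlier results of these data known. Named genes were, by rule, all members, and up to 3 per pathway group by the worse of their ranks in the lists. No set test was run. Alternatives covered windows, thresholds, overlap and each replicate. Python 3.11.15, pandas 2.3.3, NumPy 2.4.6 and SciPy 1.17.1 were used.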

Additional observations from a re-analysis of the deposited data

How the results depend on the processing

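The count of 12 genes with a shared region stayed between 10 and 13 with other windows (gene ends within 3 kb or 1 kb, bodies widened by 10 kb), any overlap, the nearest gene only, 50% overlap or summits within 250 bp. It fell to 2 (Fbl and Nol7; 4.44%, against 8.50% of all protein-coding genes) where the −log10 q had to reach 5, and to 1 (Fbl; 2.22%, against 3.08%) among the first 1000 peaks of each list, so that the share lay below that of all genes in both settings, which keep fewer peaks. The region counted at Fbl lay nearer to an end of Dyrk1b (176 bp) than of Fbl (354 bp). It was not counted at Fbl with the nearest gene only. With 1 replicate left out, the count of 12 genes ran from 16 to 31. Under that −log10 q limit, replicate 1 kept 4 genes of 16 (8.89% of the 45, against 10.4% of all genes) and replicate 2 kept 20 of 31 (44.4%, against 23.7%); among the first 1000 peaks they kept 2 and 4, and replicate 2 cut to the length of replicate 1 kept 15. The 32 other pathway genes with a shared region became 21 with the nearest gene only, 13 under that limit (13.3%, against 8.50%) and 0 among the first 1000 peaks (against 3.08%), and from 38 to 57 with 1 replicate left out. The median fold in replicate 1 was 6.01 in place of 4.34 under it. The other 37 of 50 alternative values stayed within 1.5 times the count or within the 95% interval of the median. Among these, the nearest gene only left 13 genes in replicate 1 (28.9%, against 16.8% of all genes). It left 23 in replicate 2 (51.1%, against 26.8%). Settings by transcription start, by CpG-rich promoters and by equal list length were chosen after seeing the data. No paired analysis was possible because the input libraries carry no values used here and the peak lists give no test across samples. Peaks of so few reads limit what a missing peak shows.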
